A study of Rattus with 4 samples.

Results

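Peaks called in RBM25 immunoprecipitates (RBM25 peaks) are described here for the genes of cytosolic ribosomal proteins. Enrichment over the inputs was not tested. Members were the peaks whose whole deposited gene name is Rpl or Rps and a number, with an optional a, x or l and an optional digit. Peaks named Rplp0, Rplp1, Rplp2 or Rpsa were members too. Members numbered 154 of 10804 peaks. They were 27 of 2696 in the list of the first immunoprecipitate (replicate 1) and 127 of 8108 in that of the second (replicate 2). H9C2, the established line used, consists of myoblasts first grown from the heart of rat embryos. Its RNA was cross-linked to protein with ultraviolet light at 400 mJ/cm2, trimmed with a nuclease, and sequenced with a kit that keeps the strand. The series has 2 RBM25 immunoprecipitates (RBM25_IP) and 2 inputs (RBM25_input), all labelled with the same cell line and no other treatment; the inputs were not analysed here. The design text of the series speaks of H9C2 cells that overexpress RBM25 for a separate RNA-seq experiment, and whether the immunoprecipitated cells did so is not given in the sources used here. Separate cultures are not mentioned for the replicates, so the spread between them may be technical.

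Each ribosome has a large subunit, which forms peptide bonds and lets the new chain out through an exit tunnel, and a small subunit, which holds the messenger RNA and reads its codons. Their proteins are made from short, strongly transcribed genes whose messenger RNAs start with a pyrimidine tract. Several of these genes carry small nucleolar RNAs in their introns, and some are known to regulate the splicing of their own transcripts. RBM25 is a splicing factor associated with the U1 snRNP, which recognises the start of introns.

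Tags are the authors' signal per 50-nt bin, not scaled for depth, and a longer peak has the mean over its bins. Peaks began at 19 tags in replicate 1 and at 20 in replicate 2, with medians over all peaks of 24 and 26. Library depth is unknown, so more peaks, more RNA of a gene and more RBM25 on that RNA cannot be told apart in these lists. Of 13 myoblast and muscle markers, Cald1, Tnnt2 and Tpm1 had a peak in each list, and Acta2 and Vim joined them in replicate 2. Des, Acta1, Actc1, Myog, Myod1, Myf5, Myh3 and Tpm2 had none in either list. None of 8 markers of other cell types had a peak in either list. Over all protein-coding genes 3.70% had a peak in replicate 1 and 7.32% in replicate 2, so none among 8 genes says little. A marker without a peak is not thereby shown to be absent.

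The first comparison asked how many ribosomal protein genes had RBM25 peaks and whether the subunits differed. Of 77 genes of the cytosolic ribosome, 46 of the large and 31 of the small subunit, 19 had a peak in replicate 1 (24.7%, 95% Wilson interval 16.4 to 35.4). In replicate 2 it was 47 (61.0%, 49.9 to 71.2). Over 23154 protein-coding genes of a RefSeq name table, 3.70% had a peak in replicate 1 and 7.32% in replicate 2; that background includes genes with no RNA in these cells. In 16 of the 77 genes both lists held a peak (background 3.34%) and in 50 at least 1 did (background 7.69%). Genes with a peak at the same position and strand in both lists numbered 13 (16.9%, 10.1 to 26.8; background 2.64%). These were 13 of the 19 genes found in replicate 1, where the background was 71.3%. With peaks up to the median p-value of each list alone, replicate 1 held 12 of the genes and 4 kept a shared peak. The rat annotation names 208 protein-coding genes by this naming pattern, many of them extra copies, and over that number the shares were 9.13%, 23.1% and 6.25%.

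Large and small subunit genes were not told apart by these shares. In replicate 1, 10 large subunit genes (21.7%, 12.3 to 35.6) and 9 small subunit genes (29.0%, 16.1 to 46.6) had a peak. The corresponding numbers in replicate 2 were 29 (63.0%, 48.6 to 75.5) and 18 (58.1%, 40.8 to 73.6). A shared peak was present in 8 large subunit genes (17.4%) and 5 small subunit genes (16.1%). None of the 3 differences passed a two-sided Fisher exact test over genes (adjusted p = 1 for each). These tests do not show that the subunits are alike. The 95% interval of the difference, large minus small, ran from -27.2 to 11.6 percentage points in replicate 1, from -16.2 to 26.3 in replicate 2 and from -17.2 to 17.4 for shared peaks.

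**Figure D1:**
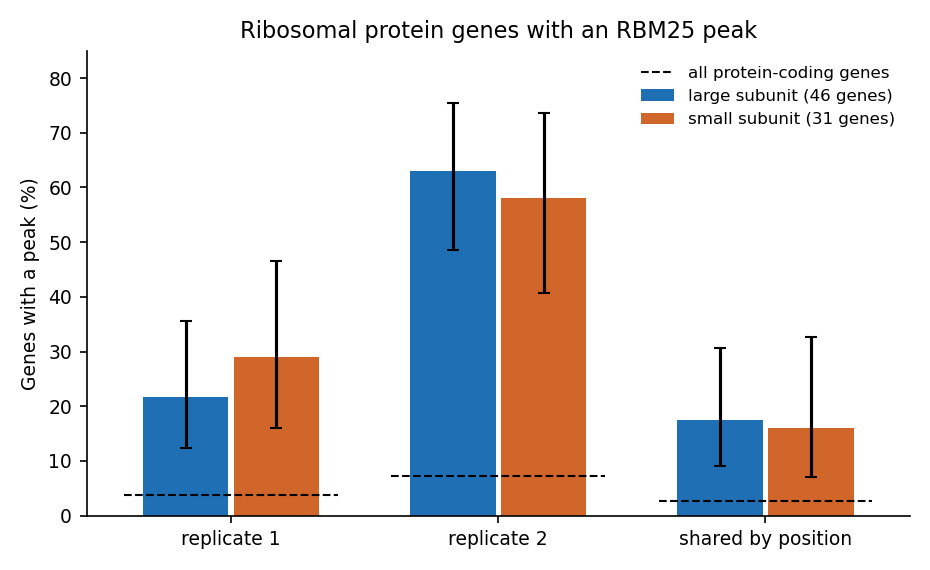
Share of the 46 large and 31 small subunit genes with an RBM25 peak (%), for each list and for peaks shared by position. Bars are shares, error bars are 95% Wilson intervals over genes, and dashed lines give the share over all protein-coding genes (3.70%, 7.32% and 2.64%); the intervals of both subunits overlap in each pair.

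Of the 154 member peaks, 97 lay in large subunit genes, 13 in replicate 1 and 84 in replicate 2. The strongest was antisense to Rplp1, which encodes an acidic stalk protein that recruits elongation factors. This 51-nt peak, on chromosome 8 at 62394100 to 62394150 (mRatBN7.2, plus strand), had 119 tags, more than 98.9% of the peaks of replicate 1. Rplp1 had no other peak in replicate 1 and none in replicate 2. It held 15.4% of the tags of ribosomal protein peaks in replicate 1, and the remaining 26 peaks had a median of 24.5 tags.

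In replicate 2 the strongest members were 3 large subunit genes without a peak in replicate 1. Rpl6 carried 5 peaks on chromosome 12. At 35350650 to 35350700, across a coding exon and its intron, its sense peak had 63 tags and its antisense peak 78. Rpl14 had 4 peaks on chromosome 8, and its bin at 120288300 to 120288350 had 77 tags on each strand, a fraction of 0.46 being coding sequence and 0.54 intron. Rpl11, whose product joins the 5S rRNA particle that restrains Mdm2, had a single peak, antisense, with 70 tags at chromosome 5, 148275700 to 148275750. These 3 genes stood above 97.2% to 98.0% of replicate 2 peaks, and the next members were Rpl23 and Rpl36a with 49 tags.

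Rpl3, which encodes a protein next to the peptidyl transferase centre and is known to control splicing of its own transcript, had the most peaks of any member. On chromosome 7 it held 1 peak in the first list and 8 in the second. The replicate 1 peak, in coding sequence on the sense strand at 111626750 to 111626800, had 22 tags. In replicate 2 that sense bin had 45 tags, and 33 were counted opposite to it. Of the other 6 replicate 2 peaks, 2 were sense peaks across a boundary, with 26 and 23 tags, and 4 were antisense.

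Rpl5, the partner of Rpl11 in the 5S particle, had 1 peak in replicate 1 and 6 in replicate 2. All 6 formed pairs on opposite strands at 3 places on chromosome 14. Antisense tags at 1847500 to 1847550 were 22 in replicate 1 against 32 in replicate 2. Among sense peaks, that at 1850150 to 1850200 in replicate 2 joined 5' UTR, coding sequence and intron, with 36 tags.

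Rpl35, whose product sits near the exit tunnel, lies on chromosome 3 and had 2 peaks in the first list against 6 in the second. Its sense peak at 22755750 to 22755850 crossed from coding sequence (fraction 0.56) into intron (0.44) and had 28 tags there in replicate 1 against 38 in replicate 2. The antisense peak over the first bin of this stretch had 24 and 46. A replicate 2 peak of 33.8 tags at 22753250 to 22753450 is annotated as 3' UTR of Rpl35 although it lies on the plus strand, opposite to the other sense peaks of the gene; it was kept as deposited, and no other member had sense peaks on both strands.

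Rpl24, an intersubunit bridge protein gene, showed a mirrored bin in both lists. This bin of chromosome 11, 44658500 to 44658550, covers coding sequence (fraction 0.36) and intron (0.64). Sense tags were 21 in replicate 1 against 38 in replicate 2, and antisense tags 26 against 38. Rpl23 had an antisense peak at chromosome 10, 82772100 to 82772150, with 22 tags in replicate 1 and 35 in replicate 2. In replicate 2 the same bin held a sense peak in coding sequence with 34 tags. Replicate 2 also had a boundary bin at 82774800 to 82774850, with 49 tags on each strand.

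Rpl8 had a sense coding peak with 20 tags in replicate 1 and 27 in replicate 2 at chromosome 7, 108626700 to 108626750. In replicate 2 the same bin also held an antisense peak with 25 tags. Rpl13a, also known as a translational repressor when it leaves the ribosome, had 1 peak in each list. It lay wholly in intron at chromosome 1, 95610700 to 95610750, with 27 and 37 tags.

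Small subunit genes held 57 member peaks, 14 in replicate 1 and 43 in replicate 2, and none exceeded 42 tags. The strongest in replicate 1 was a sense peak in an intron of Rps3, which encodes a protein at the messenger RNA entry channel, with 37 tags at chromosome 1, 153779050 to 153779100. In replicate 2 the only Rps3 peak lay 250 nt away, at 153779350 to 153779400, across a boundary and with 26 tags. Rps3a had both strands of 1 coding bin in each list, at chromosome 2, 171527900 to 171527950. Antisense tags were 29 in replicate 1 against 30 in replicate 2, and sense tags 20 against 22.

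Rps19, mutated in Diamond-Blackfan anaemia, had a sense peak that covered mostly 5' UTR (fraction 0.84) at chromosome 1, 80480800 to 80480850, with 28 tags in replicate 1 and 24 in replicate 2. Rps15a likewise had a peak wholly in 5' UTR, at chromosome 1, 172426950 to 172427000, with 19 and 22 tags. Its replicate 1 value was the lowest that list holds. Rps7 had an antisense peak alone, with 26 and 24 tags at chromosome 6, 45266600 to 45266650.

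Rps9, on chromosome 1, had 1 peak in the first list against 5 in the second. The shared sense peak at 65512700 to 65512750, with a fraction of 0.72 in coding sequence and 0.28 in intron, had 23 and 27 tags. Replicate 2 had 3 sense peaks in this gene, and all 3 crossed a boundary. Rps9 and Rps19 stand in the lists under the older names Rps9l1 and Rps19l2, which the name table gives as synonyms on the chromosome of these peaks.

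In replicate 2 the small subunit genes with the strongest peaks were Rps12 with 42 tags, Rps24 with 40 and Rps26 with 38, none of which had a peak in replicate 1. Rps24, whose transcripts are known for alternatively spliced short exons near the 3' end, had 6 peaks on chromosome 16. They formed pairs on both strands at 3 places, and the bins at 93800 to 93850 and 94150 to 94200 each combined 3' UTR, coding sequence and intron. Sense tags there were 31 and 28, and antisense tags were 40 and 33. Rps26 had 4 peaks, paired across strands at 2 places. Its sense peaks both crossed a boundary, with 28 and 29 tags.

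**Figure D2:**
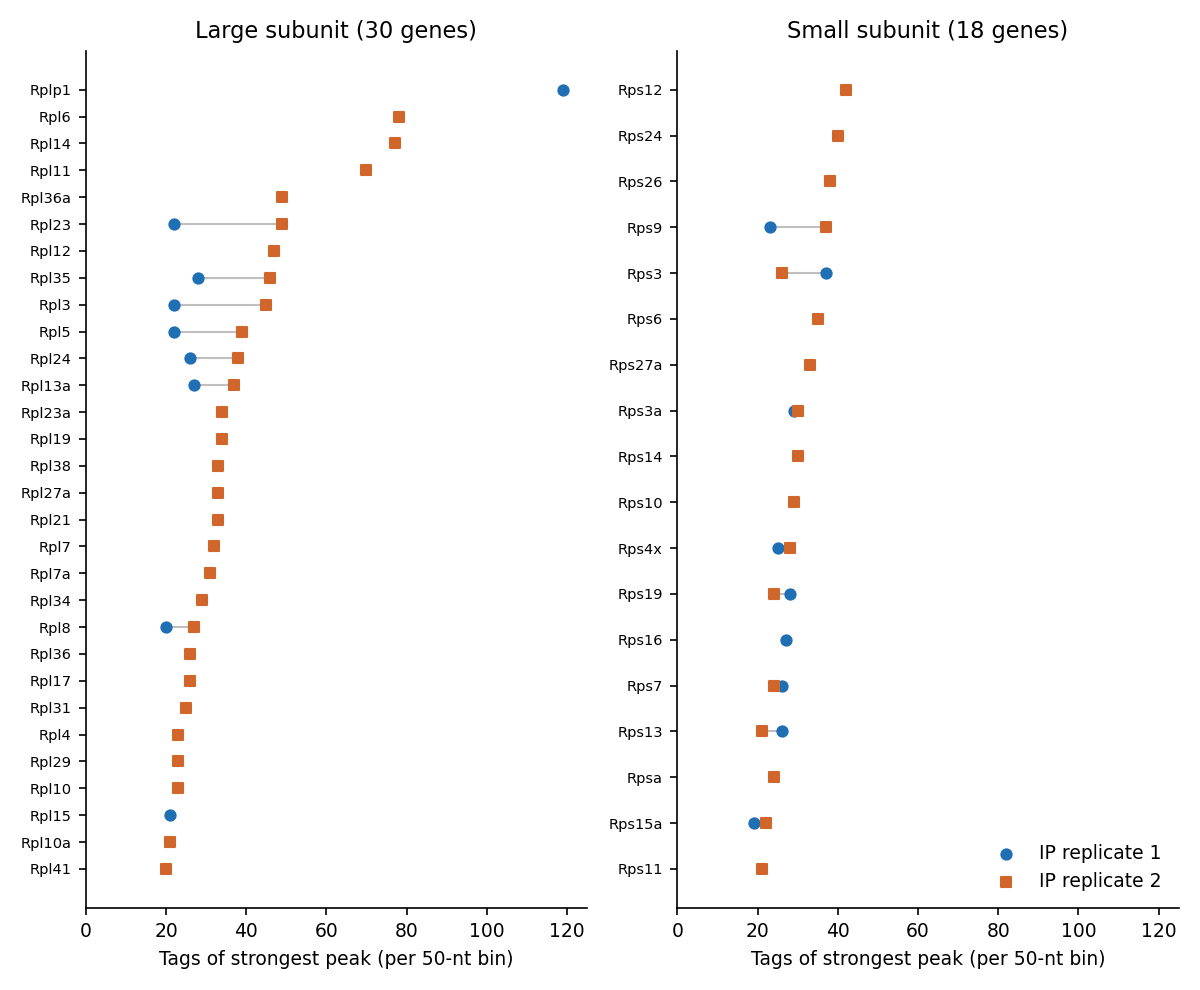
Tags of the strongest peak of 30 large and 18 small subunit genes with a peak in either list (tags per 50-nt bin), with circles for IP replicate 1, squares for IP replicate 2 and a grey line where a gene has both. Rplp1 stands alone at 119 tags, Rpl6, Rpl14 and Rpl11 follow at 70 to 78, and small subunit genes end at 42.

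Summed over members, levels were close to those of other genes. Ribosomal protein peaks had a median of 25 tags in replicate 1 (lowest 19, highest 119) and 28 in replicate 2 (20 to 78). Other genic peaks had medians of 24 and 26. In replicate 1, large and small subunit peaks had medians of 24 and 25.5 tags, and in replicate 2 of 29.5 and 28. Of the members, 13 peaks in replicate 1 and 49 in replicate 2 lay within 5 tags of the lowest peak of their list. All members together made up 1% of the peaks and 0.980% of the tags in replicate 1, and 1.57% and 1.54% in replicate 2. A ribosomal protein gene with a peak had a median of 1 peak in replicate 1 and 2 in replicate 2, against 2 and 3 for other genes.

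The second comparison asked whether peaks recurred. Of the 27 member peaks of replicate 1, 16 had a same-strand overlap in replicate 2 (59.3%, 40.7 to 75.5), and all 16 had the same start and end in both lists. Among other genic peaks, 1593 of 2563 did (62.2%). From the side of replicate 2, the 16 peaks were 12.6% of 127 members (7.91 to 19.5) against 20.5% of other genic peaks. That difference did not pass after adjustment over 12 tests of strand, boundary and recurrence (two-sided Fisher exact p = 0.0263, adjusted p = 0.315), nor did that of replicate 1 (exact adjusted p = 1). The replicate 2 difference of -7.91 percentage points was -10.9 with overlap on either strand, -10.1 within 100 nt and -10.6 with peaks up to the median p-value (exact adjusted p = 0.0535, 0.102 and 0.209). It shrank to -5.66 with identical bounds (exact adjusted p = 0.544) and stayed at -7.91 with an overlap fraction of at least 0.5. With 1 peak per gene (the strongest), a setting chosen after seeing the data, it was 0.732 in the other direction (exact adjusted p = 1). The replicate 1 difference of -2.89 points was -23.2 with peaks up to the median p-value (exact adjusted p = 0.423) and 4.01 in the other direction with identical bounds. These tests compare groups of peaks within each list and not conditions. Peaks of a gene, and both strands of a bin, are not independent, so the p-values and the intervals over peaks can understate the uncertainty.

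By subunit, 10 of 13 large subunit peaks of replicate 1 recurred (76.9%) against 6 of 14 small subunit peaks (42.9%). The difference of 34.1 percentage points (95% interval -2.56 to 60.2) did not pass the two-sided Fisher exact test (p = 0.120, adjusted p = 0.544), and in replicate 2 the shares were 11.9% and 14% (exact adjusted p = 1). The replicate 1 difference was 14.4 points with 1 peak per gene and 46 with peaks up to the median p-value, and passed in neither (exact adjusted p = 1 and 0.423). The 11 peaks of replicate 1 that did not recur included all peaks of Rplp1, Rpl15 and Rps16, which had none in replicate 2. Rps16 had 3 peaks in replicate 1, with 22 to 27 tags. Rps3, Rps13 and Rps4x had a peak in each list at other positions. Their replicate 1 sense peaks lay 250, 150 and 2650 nt away from the nearest one in replicate 2. A further 31 genes had peaks in replicate 2 alone.

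Of the 16 shared peaks, 9 were sense and 7 antisense. Shared sense peaks were present in 9 genes, and genes such as Rpl5, Rpl23 and Rps7 shared antisense peaks alone. Tags were higher in replicate 2 in 13 of the 16 pairs, with a median ratio of 1.35 (0.857 to 2.05), against 76.5% of pairs and a median of 1.24 in other genes. Pairs that were lower in replicate 2 included those of Rps19 and Rps7. Depth was not scaled, so the ratio is a description of the lists.

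**Figure D3:**
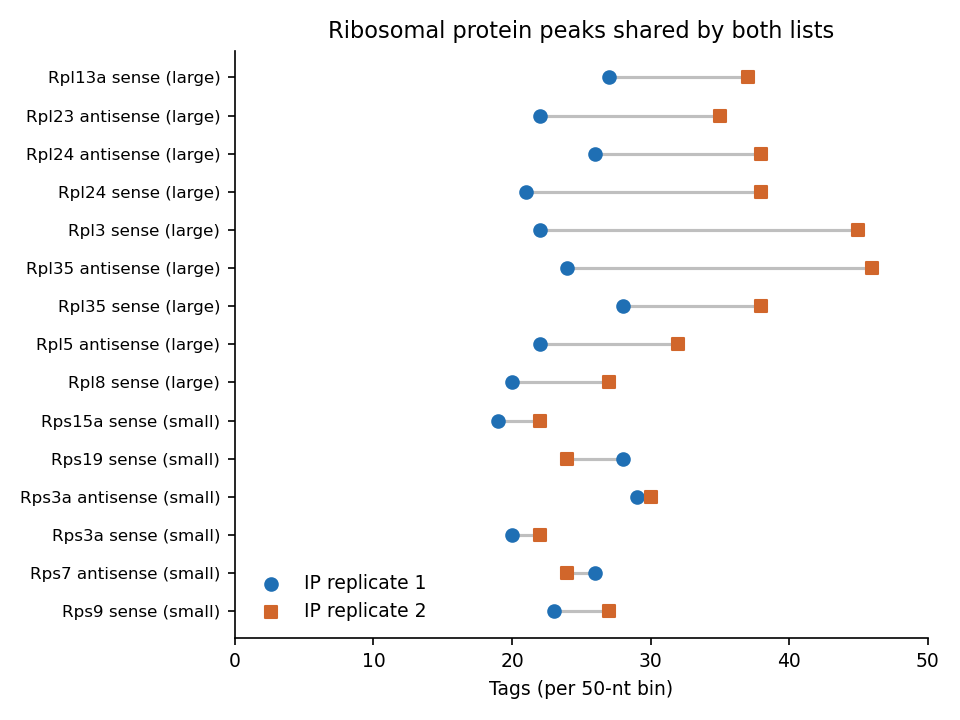
Tags (per 50-nt bin) of 15 ribosomal protein peaks shared by both lists, with circles for IP replicate 1 and squares for IP replicate 2. The Rpl3 sense peak moves the most, from 22 to 45 tags, and Rps19 and Rps7 are lower in replicate 2.

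The third comparison asked on which strand and in which part of the gene the peaks lay. Antisense peaks were 11 of 27 in replicate 1 (40.7%, 24.5 to 59.3) and 62 of 127 in replicate 2 (48.8%, 40.3 to 57.4). The shares in other genic peaks were 53.8% and 50.7%, and neither difference passed (Fisher exact adjusted p = 0.544 and 1). With 1 peak per gene, the strongest, the differences were -22.7 percentage points in replicate 1 and -17.5 in replicate 2, against -13.1 and -1.89. They did not pass either (Fisher exact adjusted p = 0.351 and 0.209). For a gene with peaks on both strands, that setting keeps the strand of its strongest peak. It is therefore another measure than the share of antisense peaks. Large and small subunit peaks were antisense in 46.2% and 35.7% of cases in replicate 1 and in 50% and 46.5% in replicate 2 (Fisher exact adjusted p = 1 for each). In replicate 2, 28 of the 47 genes had peaks on both strands, 13 on the sense strand alone and 6 on the antisense strand alone. The last included Rpl4, Rpl11, Rpl23a, Rps7 and Rpsa. This split was not counted over other genes, which had a median of 3 peaks in replicate 2. It is therefore not shown to be particular to ribosomal protein genes.

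Sense and antisense peaks of ribosomal protein genes often filled the same bin. In replicate 2, 46 of 65 sense peaks overlapped a peak on the opposite strand (70.8%, 58.8 to 80.4), against 73.5% in other genes. In replicate 1, 8 of 16 did (50%, against 50.5%). In 36 replicate 2 pairs with the same start and end, the antisense peak was higher in 13, the sense peak in 18, and 5 were equal. Among 2441 pairs of other genes the antisense peak was higher in 1418, the sense peak in 766, and 257 were equal; the difference between these splits was not tested. The antisense strand had a median of 49.7% of the tags of a pair (51.1% in other genes). Tags of the pair were within 5 of each other in 26 of the 36 (72.2%, against 71.0%). The 5 replicate 1 pairs matched less closely: 2 were within 5 tags (40%, against 66.5%), the antisense peak was higher in 3 and the sense peak in 2, and the median antisense share was 55.1%. Rpl14 had 77 tags on each strand, Rpl36a 49 and 48, Rpl38 33 and 32, and Rps4x 28 and 27. The widest gaps were those of Rpl6, with 63 and 78 tags, and of a Rpl3 bin with 26 and 39. A pair is counted only where both strands were called.

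**Figure D4:**
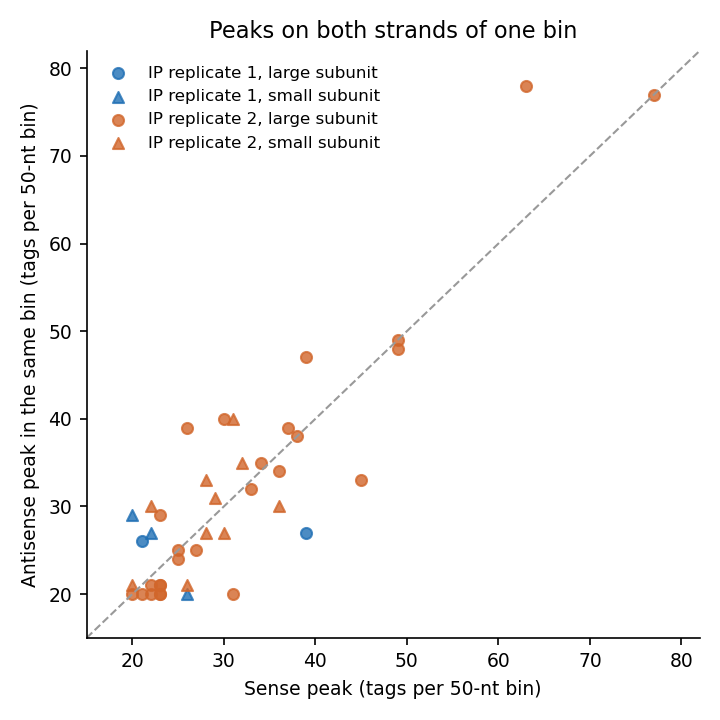
Sense tags (x axis) against antisense tags (y axis), per 50-nt bin, for the 5 replicate 1 and 36 replicate 2 pairs of ribosomal protein peaks with the same start and end; circles are large and triangles small subunit genes, and the dashed line marks equal tags. Replicate 2 points lie along the line from the lowest called values up to the Rpl14 pair at 77 tags on each strand.

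Boundary peaks, which hold both exon and intron sequence, made up 8 of 16 sense peaks in replicate 1 (50%, 28 to 72) and 44 of 65 in replicate 2 (67.7%, 55.6 to 77.8). In other genes they made up 68.1% and 71.2% (Fisher exact adjusted p = 0.544 and 1). Large subunit genes had 28 boundary peaks among 42 sense peaks in replicate 2, and small subunit genes 16 among 23 (66.7% and 69.6%, exact adjusted p = 1). In replicate 1 the order was the other way, with 4 of 7 (57.1%) and 4 of 9 (44.4%, exact adjusted p = 1). In 5 genes both lists had a boundary peak: Rpl24, Rpl35, Rps4x, Rps9 and Rps13, the last known to control the splicing of its own first intron. Rps13 had 26 tags in replicate 1 (fraction 0.76 in coding sequence) and 21 in replicate 2 (0.70), in different bins. For Rps4x, an X-linked gene, the replicate 1 peak had 25 tags with a fraction of 0.02 in coding sequence and 0.98 in intron, and the replicate 2 peak had 28 tags with 0.88 and 0.12. The exon fraction of boundary peaks had a median of 0.58 in replicate 1 and 0.53 in replicate 2, against 0.58 and 0.62 in other genes.

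At the 5' end, 3 of 16 sense peaks in replicate 1 (18.8%, 6.59 to 43.0) and 11 of 65 in replicate 2 (16.9%, 9.72 to 27.8) touched a 5' UTR. In other genes 10.9% (9.25 to 12.8) and 7.09% (6.32 to 7.95) did. These members were Rpl15, Rps15a and Rps19 in replicate 1, and Rpl5, Rpl6, Rpl29, Rpl35, Rpl36, Rpl38, Rps9, Rps14, Rps15a and Rps19 in replicate 2. In replicate 2, 9 of the 11 also held intron sequence. At the 3' end no sense peak touched a 3' UTR in replicate 1, and 7 of 65 did in replicate 2 (10.8%, 5.32 to 20.6, against 1.88% in other genes). They lay in Rpl34, Rpl35, Rpl41, Rps24 and Rps26. The count includes the plus-strand Rpl35 peak described above, which lies opposite to the other sense peaks of that gene. These features were chosen after their values were seen and were not tested.

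By the class that covers most of a peak, coding sequence held 33.3% of members in replicate 1 and 26.8% in replicate 2, and introns 18.5% and 18.1%. In other genic peaks coding sequence held 25.1% and 30.1%, and introns 14.8% and 15.3%. Where any overlap with coding sequence decided the class, introns held 7.41% and 4.72% of members and coding sequence 44.4% and 42.5%. In other genic peaks introns then held 2.61% and 3.10%, and coding sequence 37.8% and 42.7%. Among sense peaks, 4 of 16 in replicate 1 and 12 of 65 in replicate 2 lay wholly in coding sequence (25% and 18.5%, against 16.6% and 17.0% in other genes). Among them were peaks of Rpl3, Rpl8 and Rps6, whose product is the S6 kinase substrate. Peaks wholly in intron numbered 2 in replicate 1, in Rpl13a and Rps3, and 3 in replicate 2, which included Rpl13a and Rpl6. These were 12.5% and 4.62% of sense peaks, against 3.89% and 5.08% in other genes, so the replicate 2 share was near that of other genes.

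**Figure D5:**
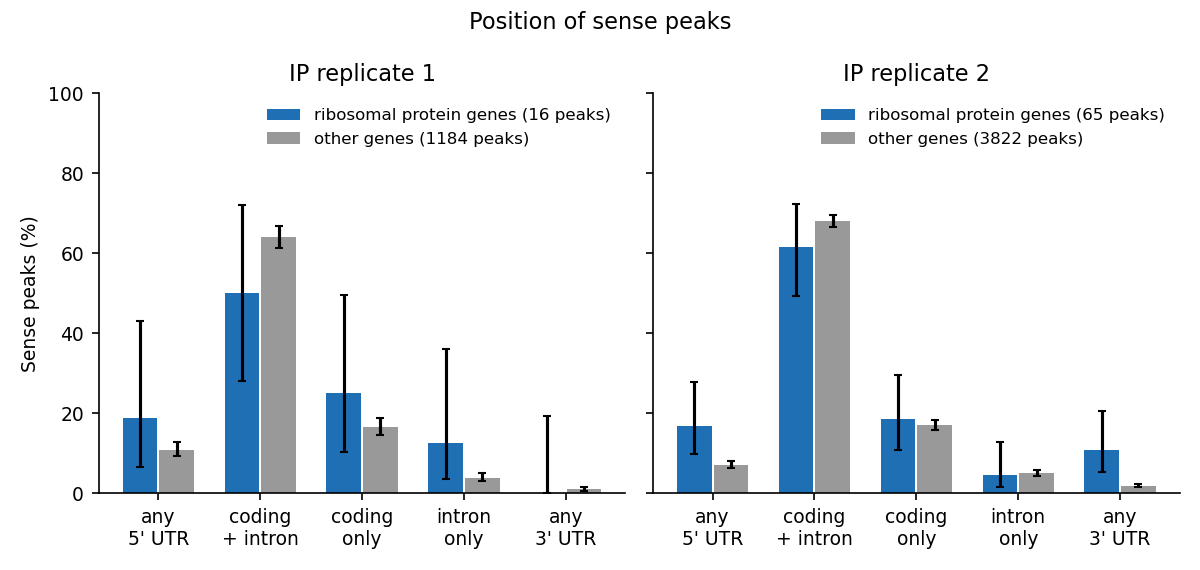
Share of sense peaks (%) that touch a 5' UTR, hold coding and intron sequence, lie wholly in coding sequence or in intron, or touch a 3' UTR, for ribosomal protein genes (16 peaks in replicate 1, 65 in replicate 2) and other genes. Error bars are 95% Wilson intervals over peaks. In replicate 2 the 5' UTR share is 16.9% against 7.09% and the 3' UTR share 10.8% against 1.88%. The 3' UTR share includes the plus-strand Rpl35 peak, which lies opposite to the other sense peaks of that gene.

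All wholly intronic sense peaks lay in genes that hold small nucleolar RNA genes. In the name table, whose build (GRCr8) was used here only for names and neighbours, 30 of the 77 genes enclose at least 1 such gene, 20 of the large and 10 of the small subunit. Rpl13a encloses 4, Rps3 2 and Rpl6 1. Thus 4 of 30 host genes had a wholly intronic sense peak and 0 of 47 other genes did (upper limit of the interval, 7.56%). Of the hosts, 9 had any peak in replicate 1 (30%) and 21 in replicate 2 (70%), against 10 (21.3%) and 26 (55.3%) of the others. Whether these peaks cover the small nucleolar RNAs was not tested, and the comparison was chosen after seeing the data.

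In 27 of the 77 genes neither list held a peak. They included Rpl9, Rpl13, Rpl18, Rpl22, Rpl26, Rpl27, Rpl28, Rpl30, Rpl32, Rpl35a, Rpl37, Rpl37a, Rpl39, Rplp0 and Rplp2 for the large subunit, and Rps2, Rps15, Rps18, Rps20, Rps21, Rps23, Rps25, Rps27, Rps28 and Rps29 for the small. A peak pair with 21 and 20 tags on chromosome 9 of replicate 2 stands under the name Rpl37a-ps1 and was outside the naming rule. Rpl7l1, a paralog, was the only member outside the 77 and had 23 and 21 tags on the strands of 1 bin in replicate 2. The name table lists pseudogenes for all 77 genes, 896 in all. How reads that match several copies were placed is not given in the sources used here, so peaks of these genes are uncertain to that extent.

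Other genes of translation were set beside these. Of 75 translation factor genes (Eif and Eef names), the first list held 18 (24%) and the second 28 (37.3%, 27.3 to 48.6), and 15 shared a peak position (20%). Mitochondrial ribosomal protein genes had no peak: 0 of 78 in each list (upper limit of the interval, 4.69%). Of 45 ribosome biogenesis genes, 10 were found in the first list (22.2%), 18 in the second (40%), and 9 shared a peak position (20%). For all 3 of these gene lists, the shares over all protein-coding genes were 3.70%, 7.32% and 2.64%. That background includes genes with no RNA in these cells. Npm1, which encodes nucleophosmin, reached 51 tags in replicate 1 and 95 in replicate 2 at an antisense bin of chromosome 10, 17748450 to 17748500. Ribosomal proteins under other symbols, of which 3 entries were found in the name table, had no peak. These lists are given as counts with no test between them.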

How the data were processed

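Each of the 2 IP samples has a list of peaks with coordinates, tags, annotation and gene name. Per the submitters' processing notes, HISAT2 and the build mRatBN7.2 were used; the peak caller is not given in the sources used here, nor is any use of the inputs. Tags, as deposited, are a signal per 50-nt bin, whole in 51-nt peaks and a mean over bins in longer ones, not scaled for depth. The authors' p-value was used only to keep the better part of each list (up to its median p-value) as an alternative. Genome sequence was not used here, so no sequence is shown.

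A peak counted as shared with a same-strand overlap in the other list; bins that only abut do not overlap. Sense, antisense and boundary follow the deposited annotation. Genes were matched by symbol, then synonym, on the same chromosome to a RefSeq table (GRCr8): 1847 of 1914 names. Shares carry 95% Wilson intervals and differences Newcombe intervals, which cover counting error only. Two-sided Fisher exact tests were adjusted by Benjamini-Hochberg over 3 gene tests and over 12 peak tests.

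Members and lists were chosen with earlier results of these data known. Named genes (24) have a shared peak, are among the 3 strongest or the 3 with most peaks per subunit and list, or have a boundary peak in both lists; others were named after their values were seen. Some members enter the counts but are not reported here by name or value. In simulations of 127 against 7754 peaks, the exact test called 10 of 200 with equal shares and 200 of 200 with shares of 50% and 80%. The simulated peaks were independent, unlike peaks of a gene, and the gap exceeded the replicate 2 differences from other genes. The simulations did not cover the smaller replicate 1 or subunit tests, so they do not give the power of the tests reported here. Scripts ran in Python 3.11.15 with scipy 1.17.1, pandas 2.3.3, numpy 2.4.6 and, for plots, matplotlib 3.10.9. Alternatives added after seeing the data were 1 peak per gene for recurrence and a comparison with protein-coding genes alone.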

Additional observations from a re-analysis of the deposited data

How the results depend on the processing

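Of 87 alternatives over 28 results, 64 counted as the same, 14 turned sign and 9 moved in size. A difference counted as the same if it kept its sign, whatever its size, and only counts, shares and medians were judged by size. For instance, the replicate 1 recurrence difference from other genes went from -2.89 to -23.2 points with the better part of each list. The replicate 2 boundary difference between subunits went from -2.90 to -17.7 there. No test of strand, boundary, recurrence or subunit passed in any alternative. With 1 list left out, 19 to 47 ribosomal protein genes had any peak, against 50. With the better part of each list, 12 genes had a peak in replicate 1 and 4 a shared one. Over all 208 symbols of the naming pattern, the shares were 9.13%, 23.1% and 6.25%. With coding sequence at any overlap, coding sequence was 42.5% in replicate 2, and introns 7.41% and 4.72%. Differences that turned sign, none of which passed, are in percentage points. Large minus small subunit genes gave -2.03 for shared peaks with sense peaks alone, and -0.957 (replicate 2) and -0.518 (shared) over the 208 symbols. The antisense difference between subunits in replicate 2 was -0.502 with the better part and -13.3 with 1 peak per gene. The boundary difference from other genes in replicate 2 was 0.634 with the better part and 2.24 with at least 10 nt on each side; between subunits it was 0.481 with 1 sense peak per gene and 13.3 with at least 10 nt. The recurrence difference from other genes was 3.58 (replicate 1) and 0.732 (replicate 2) with 1 peak per gene, a setting chosen after seeing the data, and 4.01 in replicate 1 with identical bounds. Between subunits in replicate 2 it was 4.85 with the better part and 2.71 on either strand. The cause was not tested. No paired analysis was possible because the inputs, which carry the same replicate numbers as the IP samples, were not analysed here. The unknown depth limits which genes could reach the lowest called tags.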
